A study of Mus musculus with 6 samples.

Results

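The cytochrome P450 (Cyp) genes of mouse liver were read on 6 one-colour Affymetrix arrays, 1 for each of 3 genotypes at each of 2 circadian times. Genes were taken as members when their symbol begins with Cyp and a digit, leaving out 7 genes of bile acid, sterol and PPARA-linked fatty acid metabolism. This gave 34 genes, on 40 probe sets, of 8251 genes on the array. A further 7 probe sets match several P450 genes at once and were not used. The total liver RNA came from male mice 8 to 10 weeks old. The genotypes were Clock mutant, Cry-deficient (a double knockout of Cry1 and Cry2 in the label of the CT02 array, and only Cry deficient in that of the CT14 array) and wild type on a C57BL/6 background, each sampled at CT14 and CT02. Circadian time (CT) is given in hours, with CT14 soon after the subjective night begins and CT02 soon after the subjective day begins. The mutants' strain background, the Clock allele and any pooling of mice are not stated in the sources used here, so a genotype and its background strain cannot be told apart. With 1 array per group no difference has a replicate check. Ratios, counts and medians therefore carry no p-value, and precision is limited by there being 6 arrays.

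P450 enzymes are heme proteins that insert oxygen into drugs, steroids, fatty acids and vitamins, and liver holds most of the drug-metabolising ones, in the endoplasmic reticulum of hepatocytes. Several are controlled by receptors that sense foreign compounds: CAR (Nr1i3) is known to drive Cyp2b10, PXR (Nr1i2) Cyp3a11, and the aryl hydrocarbon receptor (Ahr) Cyp1a1 and Cyp1a2. In mouse liver the clock is known to act on this system through the factors DBP, TEF and HLF, which raise the level of CAR, and growth hormone is known to set many P450 genes at different levels in males and females.

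The deposited intensities were scaled between arrays, and a level under 606.2 scaled units, the median of all scaled values, was taken as not readable. A ratio against a value under that floor is a lower bound and is written "at least". The arrays were not alike in other ways. For Actb, the 3' control probes over the 5' ones, which reflects how long the RNA was, gave 1.15 and 2.68 in the Clock mutant at CT14 and CT02, 0.86 and 1.70 in the Cry-deficient samples, and 0.93 and 0.84 in wild type. The same measure of Gapdh differed from this: it was 0.59 and 0.56 in the Clock mutant, 0.70 and 2.37 in the Cry-deficient samples, and 0.72 and 0.70 in wild type. The Clock mutant CT02 array had the lowest mean deposited intensity of the 6, at 1637, and the Cry-deficient CT14 array the highest, at 2486. Of 9 hepatocyte markers 6 were measured, and Alb, Ttr, Apoa2 and Tat read above the floor on all 6 arrays. Hpd lay under it on all, and Apoa1 lay under it on all 3 CT14 arrays and above it on all 3 CT02 arrays. The Cry1 probe set read 4718 and 3845 on the Cry-deficient arrays at CT14 and CT02, against 2723 and 1833 in wild type. The Cry2 probe set read 1344 and 1185 there, against 2256 and 1215. The positions of these probe sets relative to the deleted parts are not stated in the sources used here. They therefore do not check the label, and the Cry-deficient arrays are called Cry-labelled below. Every direction given for them rests on the label.

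Of the 34 P450 genes, 26 had a mean over the 6 arrays at or above the floor and were kept for ratios, and 23 of these read above the floor on every array. Cyp2b9, Cyp2c39 and Cyp3a16 were under it on at least 1 array. Cyp2b9 passed only through the mutant arrays (mean of -421 scaled units in wild type), and Cyp3a16 only through the Clock mutant CT02 array, so both had to differ, and counts of kept genes are given as descriptions. Cyp1b1, Cyp2b13, Cyp2b19, Cyp2j6, Cyp2s1, Cyp11a1 and Cyp24a1 lay under the floor on all 6 arrays. Cyp27b1, which makes the active form of vitamin D in kidney, read above it only on the Cry-labelled CT02 array (753) and the wild-type CT02 array (990).

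The promoters of a few neighbouring genes with close sequences are shown. Of these, Cyp2c39 and Cyp2c29 went opposite ways in the Clock mutant. Cyp2b10 and Cyp2b9 were readable on all mutant arrays, and Cyp2b13 was readable on none. The windows are from RefSeq, build GRCm38.p6, and run from 250 bases before to 50 after the annotated start. Of the 34 genes 30 matched that table, with 33 windows. Capitals mark each match, on either strand, to CACGTG (the E-box bound by CLOCK and BMAL1), TTATGTAA (the D-box bound by DBP, TEF and HLF), AGGTCA (a half-site of nuclear receptors), GCGTG (the core of the aryl hydrocarbon receptor element) or TATAAA (the TATA box). No matches overlapped in the windows printed here.
Cyp2b10, chr7:25897408-25897707 (plus strand): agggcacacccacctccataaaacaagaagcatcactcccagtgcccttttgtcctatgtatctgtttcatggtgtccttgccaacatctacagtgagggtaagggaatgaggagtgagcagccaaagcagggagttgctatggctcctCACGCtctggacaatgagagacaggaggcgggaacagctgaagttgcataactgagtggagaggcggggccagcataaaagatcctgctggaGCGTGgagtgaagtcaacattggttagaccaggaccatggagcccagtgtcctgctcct
Cyp2b9, chr7:26173159-26173458 (plus strand): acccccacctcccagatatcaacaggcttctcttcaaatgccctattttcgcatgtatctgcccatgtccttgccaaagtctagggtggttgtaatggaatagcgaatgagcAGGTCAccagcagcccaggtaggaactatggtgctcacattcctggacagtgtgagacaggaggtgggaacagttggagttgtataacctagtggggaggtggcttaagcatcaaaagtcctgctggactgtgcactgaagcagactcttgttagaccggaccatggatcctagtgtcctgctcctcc
Cyp2b13, chr7:26061245-26061544 (plus strand): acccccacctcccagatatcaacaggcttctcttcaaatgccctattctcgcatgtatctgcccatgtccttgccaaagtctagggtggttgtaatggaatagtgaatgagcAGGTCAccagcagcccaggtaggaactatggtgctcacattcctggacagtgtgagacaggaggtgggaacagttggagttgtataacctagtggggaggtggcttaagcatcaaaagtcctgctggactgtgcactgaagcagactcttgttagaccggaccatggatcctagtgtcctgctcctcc
Cyp2c39, chr19:39510572-39510871 (plus strand): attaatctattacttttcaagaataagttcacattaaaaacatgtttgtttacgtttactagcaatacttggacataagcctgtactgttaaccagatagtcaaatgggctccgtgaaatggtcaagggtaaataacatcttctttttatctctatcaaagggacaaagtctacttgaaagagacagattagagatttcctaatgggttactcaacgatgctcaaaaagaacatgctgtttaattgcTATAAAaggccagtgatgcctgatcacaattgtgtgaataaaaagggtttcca
Cyp2c29, chr19:39286835-39287134 (plus strand): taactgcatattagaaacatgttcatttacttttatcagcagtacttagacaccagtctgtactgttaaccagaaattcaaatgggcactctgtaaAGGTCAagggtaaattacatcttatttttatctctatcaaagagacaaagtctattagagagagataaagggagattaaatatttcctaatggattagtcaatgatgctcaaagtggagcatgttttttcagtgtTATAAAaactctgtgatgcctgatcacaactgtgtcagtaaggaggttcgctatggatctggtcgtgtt

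On chromosome 7, Cyp2b10 and Cyp2b9 were above wild type in both mutants, as described below. Cyp2b13 was under the floor on every array, so no direction can be given for it. The windows of Cyp2b9 and Cyp2b13 were identical at 99.3% of bases, and both hold AGGTCA from position -138, counted from the start. That of Cyp2b10 was identical to Cyp2b9 at 76.3% of bases and holds GCGTG on the minus strand at position -101 and on the plus strand at position -9. On chromosome 19, Cyp2c39 was higher and Cyp2c29 lower in the Clock mutant, with windows identical at 74.3% of bases. The Cyp2c29 window holds AGGTCA at position -154 and TATAAA at -19, and that of Cyp2c39 holds TATAAA at -3. Cyp2c39 has a second annotated start, whose window was identical to the printed one at 82.0% of bases and to that of Cyp2c29 at 79.0%, and which holds AGGTCA at position -25. Transcripts of close family members can also share probe sequence, and how far a probe set reads only its named gene was not tested.

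Over all P450 windows, CACGTG was found in 2 of 33 (6.06%), those of Cyp2j6 and Cyp4v3, against 7.15% of the 32851 promoter windows in the table. TTATGTAA was found in 0 of 33, against 0.938% of all windows. AGGTCA was found in 12 of 33 (36.4%, against 16.3%), GCGTG in 4 of 33 (12.1%, against 32.4%) and TATAAA in 15 of 33 (45.5%, against 13.6%). Windows of duplicated genes share ancestry and are not independent, and a match is a description of letters, not a bound site.

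The first question was how the level of P450 genes in each mutant stood against wild type at the same time. A small group was above wild type. Cyp2b10 was 5.66-fold or more higher in both mutants, and Cyp2c39 was higher most of all in the Clock mutant. Cyp2b9 was higher in both mutants by lower bounds of 1.72-fold to 5.54-fold, and it passed the filter only through those arrays. Cyp17a1 was higher on the Cry-labelled arrays, on the brighter of its 2 probe sets only. Cyp26a1, Cyp2c29, Cyp2e1 and Cyp3a13 were at least 2-fold lower in the Clock mutant at 1 of the times. The genes Cyp1a2, Cyp2f2, Cyp3a11, Cyp3a25 and Cyp2c70 stayed within 2-fold on all arrays. For the Clock mutant at CT14, 3 of 26 kept P450 genes were 2-fold or more higher, against 4.13% of all 4844 kept genes, and 3 were lower, against 5.64%, which makes 23.1% apart, against 9.76%. At CT02, 4 were higher (against 4.25%) and 2 lower (against 7.51%), again 23.1% apart, against 11.8%. On the Cry-labelled arrays 3 were higher (against 2.46%) and 1 lower (against 2.27%) at CT14, or 15.4%, against 4.73%. At CT02, 4 were higher (against 2.73%) and 0 lower (against 3.96%), or 15.4%, against 6.69%. At both times 3 genes were higher in the Clock mutant (Cyp2b10, Cyp2b9 and Cyp2c39, against 1.16% of all kept genes) and 0 lower (against 1.86%). Those higher at both times on the Cry-labelled arrays were 2 (Cyp2b10 and Cyp17a1, against 0.475%), and 0 were lower (against 0.475%). With the mean of both probe sets Cyp17a1 was past 2-fold at neither time. Past 3-fold lay 4 genes at CT14 and 3 at CT02 in the Clock mutant, against 2.44% and 3.12% of all kept genes, and 4 and 3 on the Cry-labelled arrays, against 1.24% and 2.04%. Without scaling, the Clock mutant CT02 count was 4 higher and 7 lower, where 21.2% of all kept genes were 2-fold apart and their median was -0.52. Both mutants were set against the same wild-type arrays. Where all arrays of a genotype are said below to lie above or below others, the share of all kept genes doing so was not counted. The times of a genotype are not replicates.

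**Figure D1:**
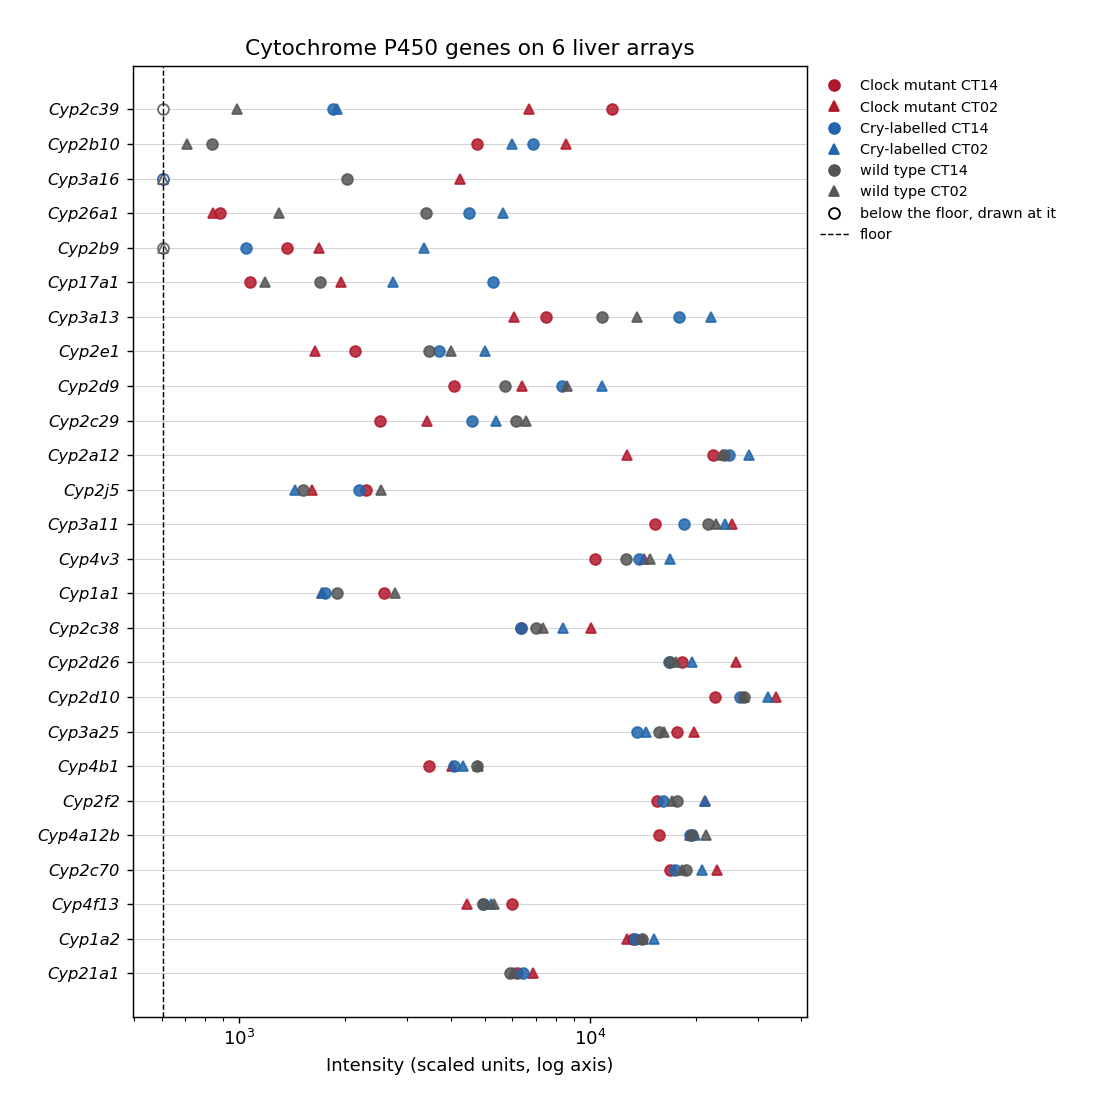
Intensity of the 26 kept P450 genes on each of 6 arrays (horizontal log axis, scaled units), ordered by their range over the arrays with the widest on top. Colours stand for genotype, circles for CT14 and triangles for CT02, and open symbols lie below the floor of 606.2 (dashed line). Cyp2c39 and Cyp2b10 have the widest ranges and Cyp21a1 and Cyp1a2 the narrowest.

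The CYP2B enzymes oxidise barbiturates and other drugs as well as steroids, and Cyp2b10 is the standard readout of CAR activity in mouse liver. Cyp2b10 read 4743 and 8511 scaled units in Clock mutant liver at CT14 and CT02, 6887 and 5994 on the Cry-labelled arrays, and 838 and 708 in wild-type liver. All 4 mutant arrays lay above both wild-type arrays. The ratio to wild type was 5.66-fold at CT14 and 12.0-fold at CT02 in the Clock mutant, and 8.22-fold and 8.47-fold on the Cry-labelled arrays. Both wild-type values stood close to the floor, so the size of these folds is less certain than their direction. In bulk RNA, fewer cells of a type and less RNA per cell cannot be told apart, here and below.

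Cyp2b9, a close relative known to be higher in female than in male mouse liver, was also above wild type in both mutants. It read 1362 and 1688 in the Clock mutant at CT14 and CT02, 1042 and 3360 on the Cry-labelled arrays, and -330 and -511 in wild type. It was readable on all 4 mutant arrays and on neither wild-type array. That made it higher by at least 2.25-fold at CT14 and by at least 2.79-fold at CT02 in the Clock mutant, and by at least 1.72-fold and 5.54-fold on the Cry-labelled arrays. Of 4 CYP2B genes measured 2 were kept, and Cyp2b13 and Cyp2b19 read at most 303 and -138 on any array.

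In the CYP2C subfamily, whose enzymes oxidise many drugs and arachidonic acid, single genes went opposite ways. Cyp2c39 read 11563 and 6696 in the Clock mutant at CT14 and CT02, 1852 and 1891 on the Cry-labelled arrays, and 394 and 981 in wild type. Both Clock mutant arrays read highest and both wild-type arrays lowest. It was at least 19.1-fold higher at CT14 and 6.82-fold higher at CT02 in the Clock mutant, and at least 3.05-fold and 1.93-fold higher on the Cry-labelled arrays. Cyp2c29, also CAR-responsive in mouse, read 2519 and 3428 in the Clock mutant, 4611 and 5373 on the Cry-labelled arrays, and 6133 and 6564 in wild type. The order of the genotypes was the reverse here, with the Clock mutant 2.43-fold lower than wild type at CT14 and 1.91-fold lower at CT02. Cyp2c38 and Cyp2c70 had log2 ratios between -0.15 and 0.45 in both mutants. The probe set of Cyp2c38 carries a suffix used for families of like sequences.

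**Figure D2:**
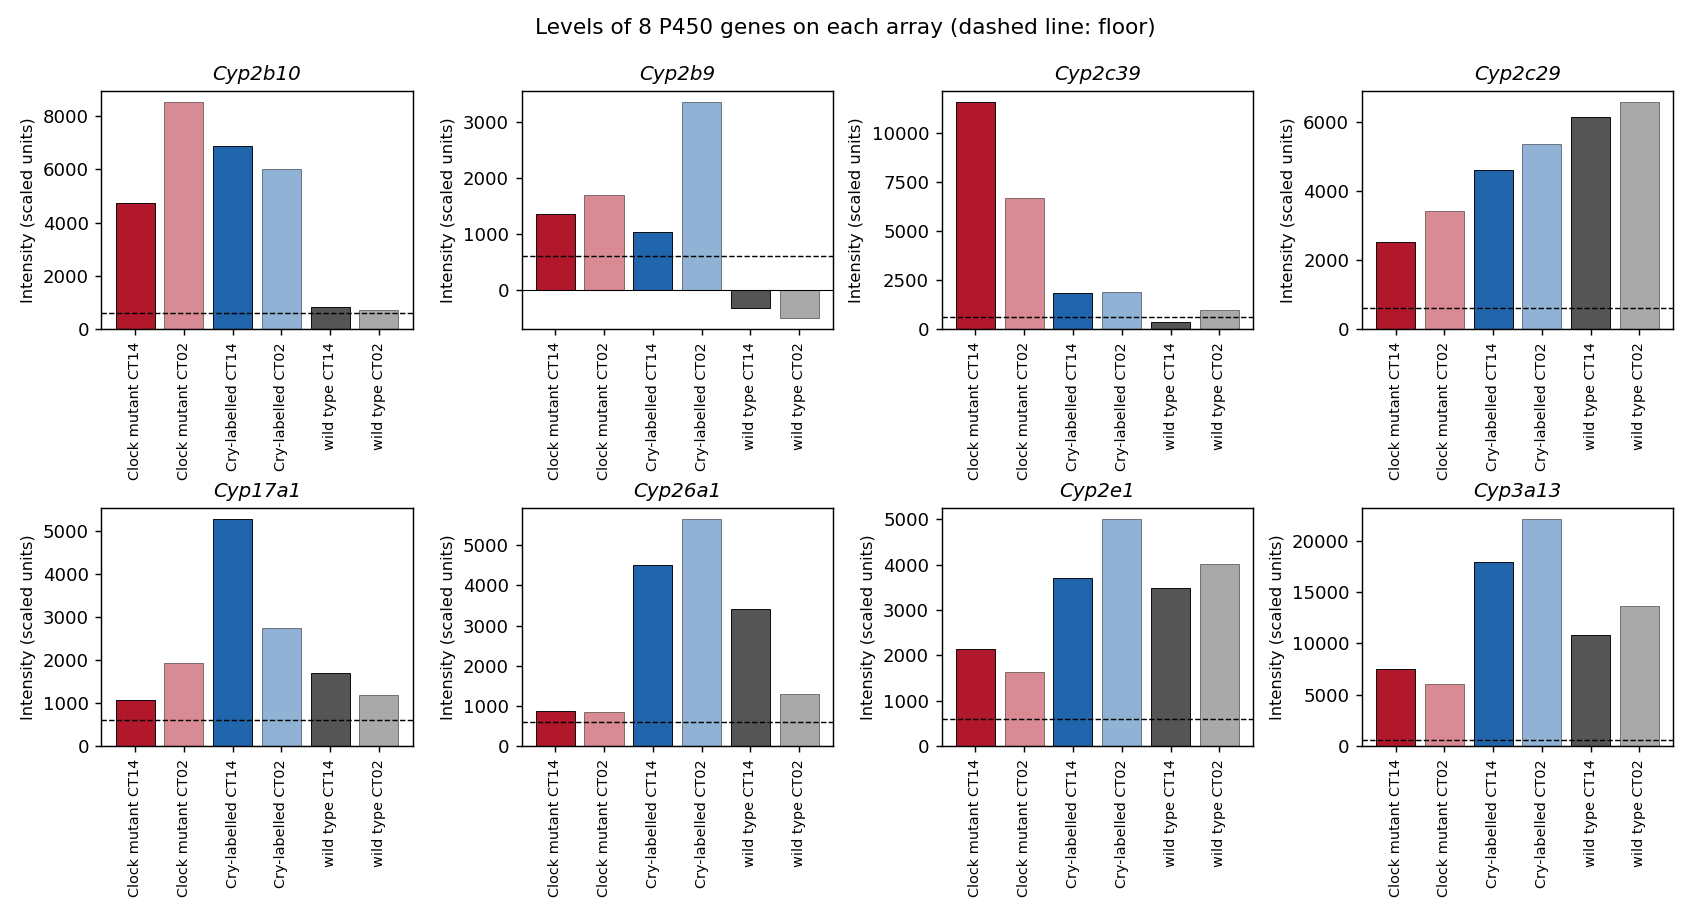
Intensity in scaled units (vertical axis) of 8 P450 genes on each array, with 1 bar per array, drawn from 0. Dark bars stand for CT14 and pale bars for CT02, and the dashed line is the floor. The wild-type bars of Cyp2b9 run below 0. Cyp2b10 and Cyp2b9 are higher on all 4 mutant arrays than in wild type. Cyp2c39 is highest in the Clock mutant and Cyp2c29 lowest there, and Cyp17a1 is highest on the Cry-labelled arrays.

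Of the genes known to differ between the sexes, 12 P450 genes were listed as higher in female liver, of which 6 were measured and 5 kept (Cyp2b9, Cyp2b10, Cyp2c39, Cyp3a16 and Cyp17a1). As Cyp2b9 and Cyp3a16 were kept only through arrays where they were high, the medians describe these genes and no more. Their median log2 ratio was 1.17 at CT14 and 2.77 at CT02 in the Clock mutant, and 1.61 and 1.21 on the Cry-labelled arrays, against medians of -0.01 to 0.00 over all kept genes. Each is the value of a single gene. In the Clock mutant these were Cyp2b9 at CT14, a bound, and Cyp2c39 at CT02. On the Cry-labelled arrays they were Cyp2c39 at CT14, a bound, and Cyp17a1 at CT02, on its brighter probe set only. The 3 kept genes listed as higher in male liver had medians of -0.31 and -0.15 in the Clock mutant and -0.01 and 0.31 on the Cry-labelled arrays, with none of them 2-fold apart. Among these was Cyp2d9, a steroid hydroxylase, at 4080 and 6379 in the Clock mutant at CT14 and CT02, 8310 and 10783 on the Cry-labelled arrays, and 5699 and 8568 in wild type. Outside the P450 genes, Hao2, a female-biased oxidase gene, read 1983 and 2233 in the Clock mutant, 21 and 103 on the Cry-labelled arrays, and 19 and -6 in wild type. Of 6 measured female-biased genes outside the family it alone was kept, and only through the Clock mutant arrays, so that it had to differ. The 5 kept male-biased genes outside the family had medians of 0.00 and 0.26 in the Clock mutant and -0.09 and 0.16 on the Cry-labelled arrays. The 0.00 is that of Elovl3, under the floor on both arrays compared. Of these genes Serpina1e was 3.96-fold lower in the Clock mutant at CT14, and Elovl3 at least 3.14-fold lower on the Cry-labelled array at CT02. The probe set of Serpina1e carries the suffix used for families of like sequences.

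Cyp17a1, a steroid hydroxylase and lyase of androgen synthesis, read 1072 and 1947 in the Clock mutant at CT14 and CT02, 5279 and 2744 on the Cry-labelled arrays, and 1698 and 1182 in wild type. Both Cry-labelled arrays lay above the other 4, by 3.11-fold and 2.32-fold against wild type. Its second probe set went the other way on those arrays, at 332 and 106, against 1132 and 1049 in wild type, and with the mean of both probe sets the log2 ratios were 0.99 and 0.35. Cyp21a1, which acts in adrenal steroid synthesis, read between 5906 and 6856 on the 6 arrays. It had the narrowest range of the kept P450 genes, 1.16-fold. Its probe set carries a suffix used for sequence shared by several transcripts, and which of them it reads was not tested. Of the other steroid cell markers, Cyp11a1 and Hsd3b1 were under the floor on every array. Star read 1090 and 97 in the Clock mutant, 414 and 507 on the Cry-labelled arrays, and 1327 and 796 in wild type.

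Cyp26a1, which degrades retinoic acid, read 877 and 839 in the Clock mutant at CT14 and CT02, 4508 and 5643 on the Cry-labelled arrays, and 3402 and 1296 in wild type. Both Clock mutant arrays were the lowest and both Cry-labelled arrays the highest. The Clock mutant was 3.88-fold lower than wild type at CT14 and 1.54-fold lower at CT02. The Cry-labelled arrays were 1.32-fold higher at CT14 and 4.35-fold higher at CT02.

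Cyp2e1, the ethanol-inducible enzyme of hepatocytes around the central vein, read 2137 and 1637 in the Clock mutant, 3716 and 5000 on the Cry-labelled arrays, and 3481 and 4010 in wild type. It was 1.63-fold lower than wild type at CT14 and 2.45-fold lower at CT02 in the Clock mutant. Of the pericentral markers outside the family, Glul, which encodes glutamine synthetase, read 9100 and 4638 in the Clock mutant, against 15059 and 15048 in wild type. Oat, an ornithine aminotransferase gene, read 15105 and 19810, against 16826 and 17598. The pericentral P450 gene Cyp1a2 read 13223 and 12762 in the Clock mutant, 13448 and 15155 on the Cry-labelled arrays, and 14088 and 14148 in wild type. Of the 4 kept P450 genes listed as pericentral, the median log2 ratio was -0.60 and -0.54 in the Clock mutant and -0.15 and 0.09 on the Cry-labelled arrays. The periportal gene Cyp2f2, whose product activates naphthalene, had log2 ratios of -0.19 and 0.32 in the Clock mutant and -0.13 and 0.31 on the Cry-labelled arrays. The 5 kept periportal markers, Cyp2f2 among them, had medians of -0.51 and 0.06 in the Clock mutant and -0.09 and 0.31 on the Cry-labelled arrays. Among these Ass1, a urea cycle gene, was lower in the Clock mutant, by at least 3.65-fold at CT14 and 2.48-fold at CT02, and 4.41-fold higher at CT02 on the Cry-labelled array.

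The CYP3A enzymes metabolise a wide range of drugs. Cyp3a13 read 7503 and 6076 in the Clock mutant at CT14 and CT02, 17910 and 22089 on the Cry-labelled arrays, and 10811 and 13613 in wild type. The Clock mutant arrays read lowest (1.44-fold and 2.24-fold lower than wild type) and the Cry-labelled arrays highest (1.66-fold and 1.62-fold higher). The PXR target Cyp3a11 read 15293 and 25335 in the Clock mutant, 18496 and 24179 on the Cry-labelled arrays, and 21665 and 22796 in wild type, and stayed within 2-fold. Cyp3a25 stayed within 1.46-fold over the 6 arrays. Cyp3a16, best known from fetal liver, read 396 and 4262 in the Clock mutant, -70 and -174 on the Cry-labelled arrays, and 2020 and 586 in wild type, on a probe set whose suffix marks a reduced probe choice. It was thus at least 3.33-fold lower at CT14 and at least 7.03-fold higher at CT02 in the Clock mutant, and at least 3.33-fold lower at CT14 on the Cry-labelled arrays.

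**Figure D3:**
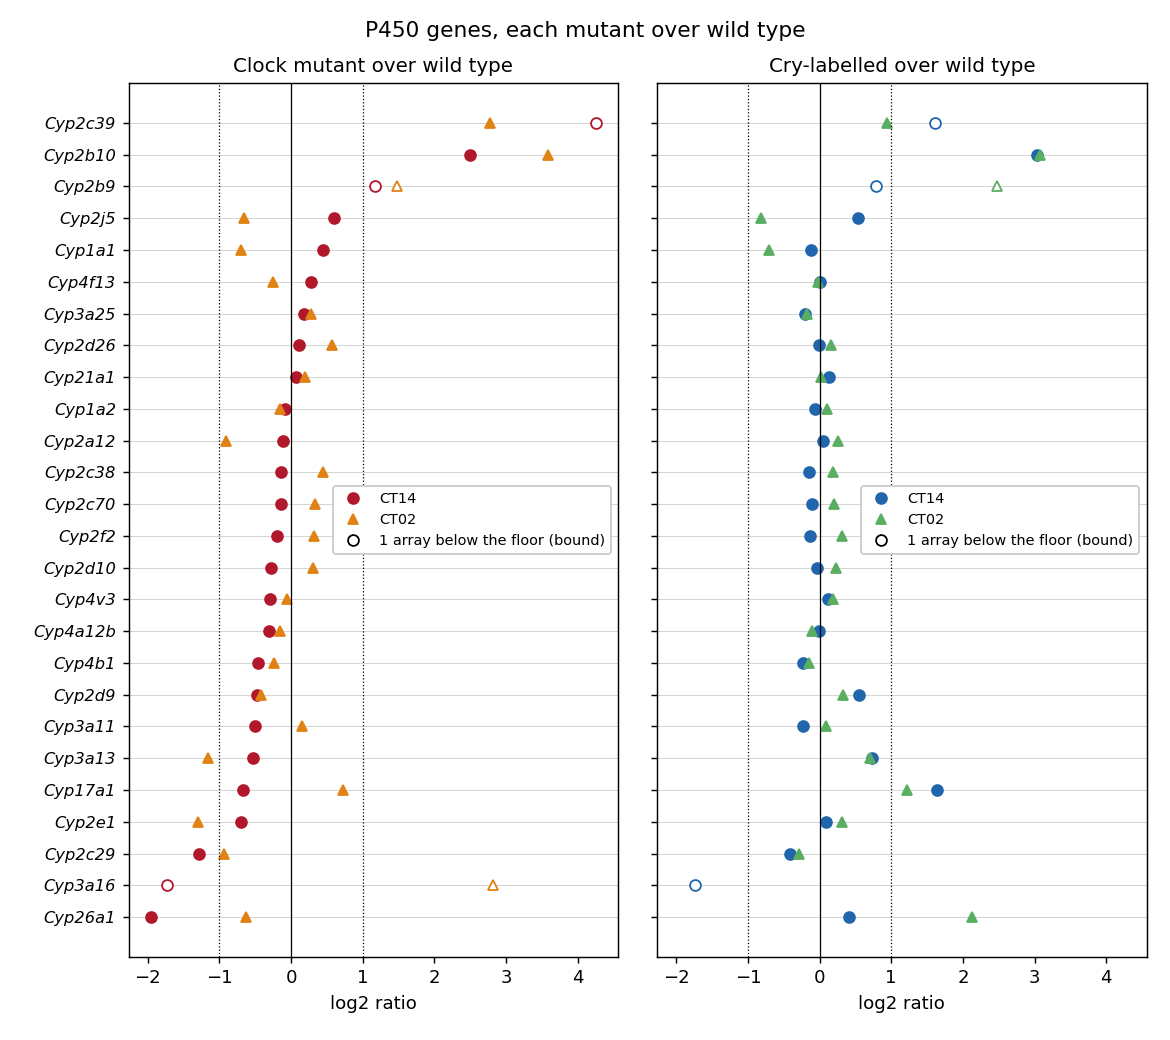
The log2 ratio (horizontal axis) of each kept P450 gene in the Clock mutant over wild type (left) and on the Cry-labelled arrays over wild type (right), at CT14 (circles) and CT02 (triangles). Dotted lines mark 2-fold and open symbols are bounds. Cyp2b10 lies beyond 2-fold on the high side at both times in both panels, and most other genes lie between the dotted lines.

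The remaining families differed less from wild type. Cyp1a1, which acts on polycyclic hydrocarbons, had log2 ratios of 0.45 and -0.69 in the Clock mutant at CT14 and CT02 and -0.11 and -0.70 on the Cry-labelled arrays, and its second probe set was under the floor on every array. Cyp2a12, a steroid hydroxylase, read 22326 and 12724 in the Clock mutant, 24886 and 28364 on the Cry-labelled arrays, and 24133 and 23776 in wild type, so that the Clock mutant CT02 array alone stood low. Cyp2j5, an arachidonic acid epoxygenase also found in kidney, read 2291 and 1608 in the Clock mutant, 2187 and 1441 on the Cry-labelled arrays, and 1515 and 2534 in wild type. Both mutants were above wild type at CT14 and below it at CT02, all within 2-fold. Of 5 kidney tubule markers, Slc22a6 and Miox read below 0 on all arrays. Slc34a1, which was not kept, read 492 and 399 in the Clock mutant, 760 and 234 on the Cry-labelled arrays, and 819 and 731 in wild type. Umod, also not kept, was above the floor only on the Cry-labelled CT02 array, at 734. Kap, the single kidney marker kept, read -100 and 117 in the Clock mutant, 2719 and 294 on the Cry-labelled arrays, and 4506 and 2635 in wild type, and its part in the Cyp2j5 values was not tested. On the probe sets used, the 3 CYP2D genes and the 4 kept CYP4 genes had no member 2-fold from wild type at any time in either mutant. Their products hydroxylate drugs and fatty acids. Of the probe sets matching several genes, that of Cyp2d9 and Cyp2d12 read 6408 in the Clock mutant at CT14, against 13485 in wild type (log2 ratio -1.07). That of Cyp4b1 and Cyp4b1-ps2 read 508 on the Cry-labelled CT14 array, against 1396 in wild type (log2 ratio -1.20, a bound). The other ratios of both probe sets to wild type stayed within 2-fold. For Cyp2d10 the second probe set read 7744 and 15907 in the Clock mutant, against 13664 and 13664 in wild type, and the ratio of CT14 over CT02 on it was -1.04 on the log2 scale in the Clock mutant, against -0.58 on the brighter probe set.

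The range over all 6 arrays sums up how evenly each gene was held. The median range of the kept P450 genes was 1.65-fold, against 1.77-fold for all kept genes. Of the 26 genes 11 spanned at least 2-fold, where 36.4% of all kept genes did. Cyp2c39 spanned at least 19.1-fold, Cyp2b10 12.0-fold and Cyp26a1 6.72-fold, whereas 15 genes stayed within 2-fold, among them Cyp1a2 (1.19-fold), Cyp4f13 (1.34-fold) and Cyp2c70 (1.36-fold).

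The second question was how P450 genes differed between the night time point (CT14) and the day time point (CT02). In the Clock mutant 0 of the 26 genes were 2-fold or more higher at CT14, against 4.31% of all kept genes, and 1 was lower, against 3.43% (3.85% apart, against 7.74%). On the Cry-labelled arrays 0 were higher (against 3.53%) and 1 lower (against 2.02%), or 3.85%, against 5.55%. In wild type 2 were higher (against 2.48%) and 0 lower (against 2.09%), or 7.69%, against 4.56%. Past 3-fold lay 1 gene in each genotype, against 1.65% of all kept genes in the Clock mutant, 1.53% on the Cry-labelled arrays and 0.97% in wild type. Past 2-fold between the times, the shares of P450 genes thus lay under those of all genes in both mutants. In wild type the share lay above that of all genes, on 2 genes. Without scaling, the Clock mutant count was 4 higher and 1 lower, where 14.6% of all kept genes were 2-fold apart, and the Cry-labelled count 1 higher and 1 lower, where 6.93% were. Probe sets matching several P450 genes are not in these counts. In the Clock mutant, that of Cyp2d9 and Cyp2d12 had a log2 time ratio of -1.38, and that of Cyp4b1 and Cyp4b1-ps2 of -1.07. That of Cyp2a5 and Cyp2a4 had -1.08 on the Cry-labelled arrays. All other time ratios of such probe sets stayed within 2-fold.

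In wild type the genes higher at CT14 were Cyp26a1 (2.62-fold) and Cyp3a16 (at least 3.33-fold). Cyp26a1 differed little between the times in the Clock mutant (log2 ratio 0.06) and on the Cry-labelled arrays (-0.32), and the difference of its time ratio from that of wild type was -1.33 and -1.72 on the log2 scale. Cyp2j5 and Cyp1a1 were lower at CT14 in wild type, with log2 ratios of -0.74 and -0.55, but had ratios of 0.51 and 0.59 in the Clock mutant and of 0.60 and 0.03 on the Cry-labelled arrays. On its own probe set Cyp2d9 was lower at CT14 in all 3 genotypes, with log2 ratios of -0.64 in the Clock mutant, -0.38 on the Cry-labelled arrays and -0.59 in wild type. On the probe set that it shares with Cyp2d12 the ratios were -1.38, -0.41 and 0.02, so wild type did not differ there. The genes past 2-fold in the mutants were Cyp3a16, at least 7.03-fold lower at CT14 in the Clock mutant, and Cyp2b9, 3.22-fold lower at CT14 on the Cry-labelled arrays. Cyp2b10, so different between genotypes, had time ratios of -0.84 in the Clock mutant, 0.20 on the Cry-labelled arrays and 0.24 in wild type.

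**Figure D4:**
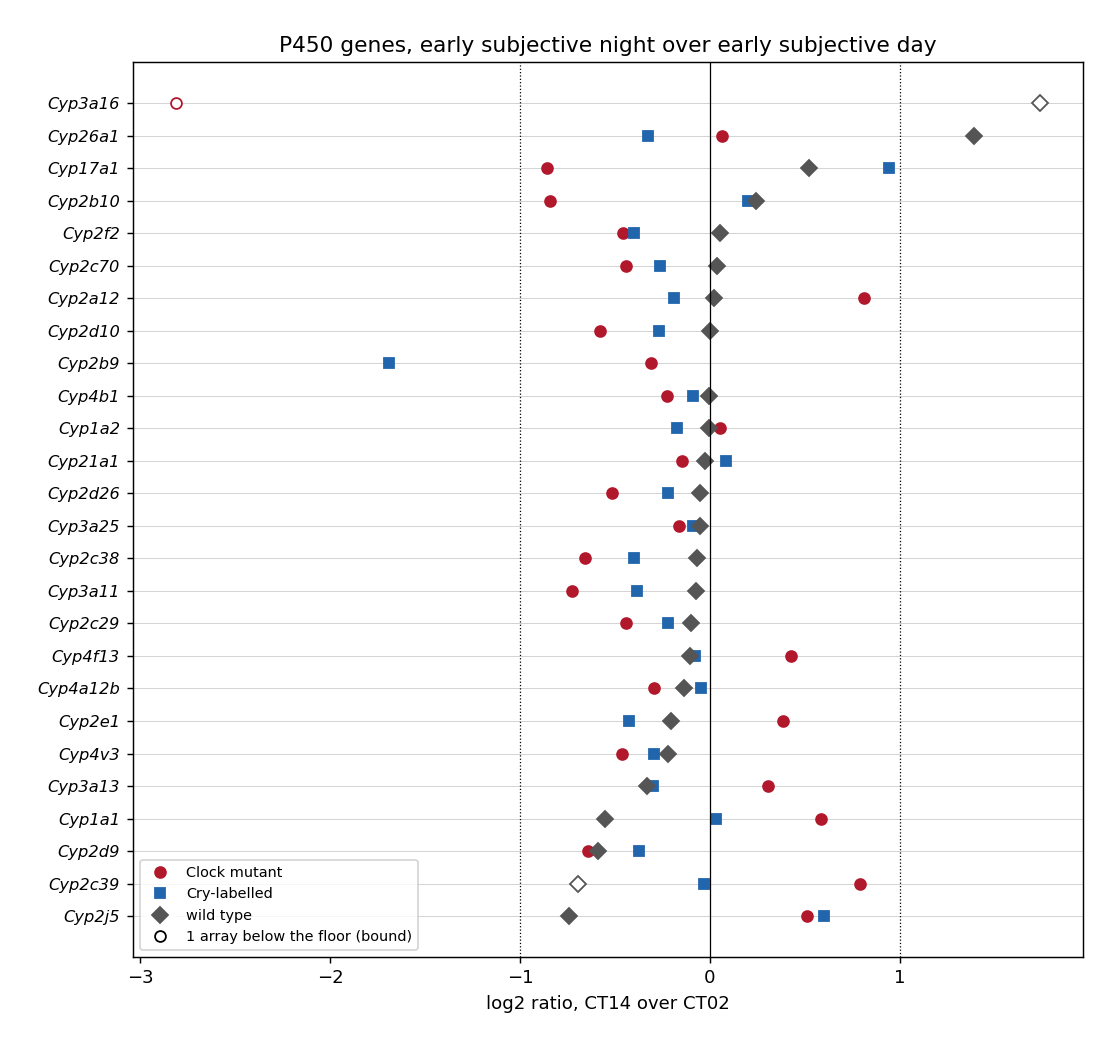
The log2 ratio of CT14 over CT02 (horizontal axis) for each kept P450 gene in the Clock mutant (circles), on the Cry-labelled arrays (squares) and in wild type (diamonds), ordered by the wild-type ratio. Dotted lines mark 2-fold, open symbols are bounds, and ratios with both values below the floor are left out. Most genes lie between the dotted lines, and only Cyp3a16 and Cyp26a1 lie beyond 2-fold in wild type.

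Many P450 genes were slightly lower at CT14 in both mutants. Of the 26 genes 17 had a ratio below 0 in the Clock mutant, with a median of -0.30, 20 on the Cry-labelled arrays, with a median of -0.20, and 17 in wild type, with a median of -0.05. The brightest 10% of all kept genes had medians of -0.29, -0.16 and -0.01 in the same contrasts, and 11 of the 26 P450 genes belong to that brightest part. Those 11 had medians of -0.44, -0.26 and -0.05. Without scaling the Clock mutant had 18 of 26 genes above 0, with a median of 0.19, where all kept genes had a median of 0.45. The Cry-labelled arrays then had 12 above 0 and 13 below, with a median of -0.01, where all kept genes had a median of 0.20. All 3 CYP2D genes were lower at CT14 in the Clock mutant and on the Cry-labelled arrays, with medians of -0.58 and -0.27. The sign held without scaling and after quantile normalization, but without scaling the medians were only -0.08 and -0.06.

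The partners and regulators of P450 enzymes gave the setting of these differences. The 5 measured redox partners, which hand electrons to P450 enzymes, had no member 2-fold from wild type. Of these, Cyb5a read 22138 and 31601 in the Clock mutant at CT14 and CT02, 23461 and 27790 on the Cry-labelled arrays, and 24442 and 25079 in wild type. Of 9 kept genes of heme synthesis and breakdown, 1 was at least 2-fold higher than wild type at each time in the Clock mutant, against 4.13% and 4.25% of all genes at CT14 and CT02, and 1 and 2 were on the Cry-labelled arrays, against 2.46% and 2.73%. None was 2-fold lower. Uros, an enzyme gene of heme synthesis, read 2775 and 3419 in the Clock mutant, 2350 and 1817 on the Cry-labelled arrays, and 818 and 980 in wild type, so all 4 mutant arrays were above both wild-type arrays. Alas1, the rate-limiting enzyme of heme synthesis, read 8428 and 11847 in the Clock mutant, 13533 and 18768 on the Cry-labelled arrays, and 13357 and 8836 in wild type.

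Among the receptors, Nr1i3, encoding CAR, read 14992 and 10584 in the Clock mutant at CT14 and CT02, 14994 and 13676 on the Cry-labelled arrays, and 15251 and 14544 in wild type, all within 2-fold. Like that of Cyp3a16, its probe set carries the suffix that marks a reduced probe choice. Nr1i2, encoding PXR, did not pass the filter and read 1099 at most. Dbp was under the floor on both Clock mutant arrays, read 2259 and 1836 on the Cry-labelled arrays, and 750 and -392 in wild type. Tef read 3552 and 2939 in the Clock mutant, 6790 and 7680 on the Cry-labelled arrays, and 6350 and 2543 in wild type. Of 19 kept regulators, 2 were at least 2-fold higher and 2 lower in the Clock mutant at CT14, against 4.13% and 5.64% of all kept genes, and 2 higher and 0 lower at CT02, against 4.25% and 7.51%. On the Cry-labelled arrays 3 were higher and 1 lower at CT14, against 2.46% and 2.27%, and 2 higher and 3 lower at CT02, against 2.73% and 3.96%. Among the last was Hnf4a, a receptor that keeps hepatocyte genes active, at 4154 and 871, against 6563 and 4042 in wild type. Bcl6, a repressor in the growth hormone pathway, was 5.73-fold lower than wild type in the Clock mutant at CT14 and 2.77-fold lower on the Cry-labelled array. At CT02 it was 1.56-fold lower in the Clock mutant and 1.04-fold higher on the Cry-labelled array.

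Other genes known to respond to CAR and PXR lay on both sides of wild type. Of 15 kept, 1 was at least 2-fold higher and 2 lower in the Clock mutant at CT14, against the same 4.13% and 5.64% of all kept genes, and 0 and 2 at CT02, against 4.25% and 7.51%. On the Cry-labelled arrays 1 and 0 were at CT14, against 2.46% and 2.27%, and 2 and 1 at CT02, against 2.73% and 3.96%. Their medians were 0.02 and 0.11 in the Clock mutant and 0.00 and 0.24 on the Cry-labelled arrays. Gstm1, a glutathione transferase gene, read 2116 and 9374 in the Clock mutant, 9907 and 12854 on the Cry-labelled arrays, and 11371 and 9891 in wild type, so the Clock mutant CT14 array alone stood low. Its probe set carries the suffix used for families of like sequences, and which genes it reads was not tested. Gstm2, of the same family, read 7659 and 7446 in the Clock mutant, 2270 and 1843 on the Cry-labelled arrays, and 2576 and 3750 in wild type. Gsta2, another transferase gene, read 6418 and 3439 in the Clock mutant, 10438 and 17960 on the Cry-labelled arrays, and 3267 and 7634 in wild type. Abcc2, a canalicular export pump gene, read 1497 and 1719 in the Clock mutant, 4456 and 4497 on the Cry-labelled arrays, and 4442 and 4822 in wild type. Of 5 measured aryl hydrocarbon receptor targets outside the family none passed the filter, so the level of that pathway could be read only from Cyp1a1 and Cyp1a2.

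Markers of other liver cells also differed between arrays. Of 6 kept Kupffer cell markers, 5 were above wild type on the Cry-labelled array at CT02, with summed levels of 33607, against 25418 in wild type, and C1qa was lower (1508, against 4779). Marco, 1 of the 5, was kept only through that array, where it read 2831, and so had to be higher there. At CT14 the sum was 25650 on the Cry-labelled array and 24268 in wild type. In the Clock mutant it was 20100 at CT14 and 18931 at CT02. The part of these cells in the P450 values was not tested.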

How the data were processed

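Per the labels, total liver RNA was hybridised to 6 arrays, grouped here by their titles. The deposited values are whole-number intensities, some of them negative, and the software, background step and normalization behind them are not stated in the sources used here. Arrays were scaled by the median of each probe set's ratio to its geometric mean over all arrays, using 6065 bright probe sets positive throughout, and values under the pooled median were raised to it (the floor) before log2. Names came from the platform annotation (10855 of 12488 probe sets with 1 symbol, 396 with several, 1237 with none), of which 10839 matched RefSeq by gene number. The brightest probe set stood for a gene, and 4844 of 8251 genes had a mean at or above the floor and were kept.

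With 1 array per group no test was made. A call is a ratio of at least 2-fold. The text names Cyp2b10, Cyp2c39, kept P450 genes past 2-fold at both times or among the 4 largest per direction and comparison, up to 4 per role list by level, and up to 4 of each other list by ratio. Nr1i3 and Nr1i2 are named outside this rule, after their values were seen. The members and lists were chosen with earlier results of these data known. The scaling and ratios were tested on simulated positive values, with changes set in bright genes only. That test did not cover negative values, ratios against the floor or the filter on dim genes. Alternatives were no scaling, quantile normalization, the CT02 array of either mutant left out of scaling, a lower floor (25th percentile), no filter, the mean of probe sets, probe sets with no letter in the suffix, and 3-fold. Python 3.11.15, pandas 2.3.3 and numpy 2.4.6 were used.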

Additional observations from a re-analysis of the deposited data

Results flagged for a closer look

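Cyp3a16 had ratios past 2-fold in opposite directions under the same contrast, and the difference was not tested. Its log2 ratio of CT14 over CT02 was -2.81 in the Clock mutant and 1.74 in wild type, both bounds. Its log2 ratio of the Clock mutant over wild type was -1.74 at CT14 and 2.81 at CT02. These values rest on 1 probe set and on the Clock mutant CT02 array, without which the gene does not pass the filter on dim genes.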

How the results depend on the processing

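Of 63 counts of P450 genes at least 2-fold apart under the alternatives, 53 stayed within 1.5 times. As deposited, the count was 11 (Clock mutant over wild type at CT02), 5 (CT14 over CT02 in the Clock mutant) and 2 (on the Cry-labelled arrays), against 6, 1 and 1 after scaling, and quantile normalization gave 2 for CT14 over CT02 in the Clock mutant. With probe sets without a letter in the suffix, and with the Clock mutant CT02 array left out of scaling, floor and filter, that count was 0 and that in wild type 1, against 1 and 2, since Cyp3a16 drops out of both. At 3-fold it was 3 for the Clock mutant at CT02 and 1 for CT14 over CT02 in wild type. Scaling without the Cry-labelled CT02 array, chosen after seeing the data, changed no P450 count. The 24 ratios of named genes past 2-fold were followed under each alternative but 3-fold, whether or not the gene still passed the filter. All 24 kept their direction and size class except with the mean of probe sets (22, Cyp17a1 being lost at both times) and probe sets without a letter (19 of 19 measured). No paired analysis was possible because each group holds 1 array, so no pair of groups shares more than 1 replicate number, and no replicate can be left out. Blocking on time in a fit of all arrays could be done but was left out, since its error would be the genotype difference in the time ratios. Signal above background limits what can be read of Cyp2b9, Cyp2c39, Cyp3a16 and the 8 genes below the filter.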
